A study of Mus musculus with 24 samples.

Results

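The enteroendocrine hormone genes examined here were 10 genes that mark the hormone-secreting cells of the gut epithelium: Gcg, Pyy, Cck, Nts, Sct, Gip, Sst, Tph1, Chga and Chgb. They were chosen by gene symbol from the known hormones and secretory granule proteins of these cells, and they were 10 of the 55536 genes in the count table. All 10 passed the filter on low counts, which kept 14076 genes. The RNA came from the ileum, the last stretch of the small intestine, of 24 mice of the inbred strain C57BL/6N, with a separate library for each animal. The mice entered the study at 4 to 5 weeks of age and received for 20 weeks a control diet with 10 kcal% fat (CD) or a high-fat diet with 60 kcal% fat (HFD), which induces obesity. In the CDmetf and HFDmetf groups, metformin, an oral antidiabetic drug, was then added to the drinking water for 10 weeks at 50 mg/kg body mass/day, whereas CD and HFD animals received their diet alone. The 6 animals of a group were 3 males (M1, M2 and M3) and 3 females (F1, F2 and F3). The cages, of 3 animals each, were the units of the experiment, set up in 3 blocks over time. For RNA a single animal was drawn at random from each cage, so no libraries shared a cage.

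Enteroendocrine cells are rare epithelial cells that sense nutrients, bile acids and microbial products in the lumen and release peptides or serotonin from granules at their base. Their hormone repertoire changes along the gut: K cells with Gip and I cells with Cck are known mainly from the duodenum and jejunum, whereas L cells with Gcg and Pyy and N cells with Nts become more common towards the ileum. Metformin is known to raise circulating GLP-1, a product of Gcg. In RNA from whole tissue pieces, fewer cells of a type and less RNA per cell cannot be told apart.

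The libraries held from 1829690 to 40606400 reads on genes (median of 3467310). Levels are given as CPM (counts per 1000000 reads on genes) after TMM scaling (trimmed mean of M-values), and 3 reads corresponded to between 0.0705 and 1.71 CPM depending on the library. The library CD M3 stood apart, with 85.4% of its reads on its 10 most abundant genes (9.22–36.6% in the others), mainly ribosomal RNA sequences. The 36.6% belonged to HFDmetf F2, which also had the fewest reads on genes and held the highest Gcg, Sst, Chga and Chgb of its group. In 2 libraries of the HFD group, labelled M2 and F2, the sex-linked reads went against the label. The tissue label was compared with marker genes of the ileum: Fabp6, the ileal bile acid binding protein, ranged from 0.817 to 2662 CPM and Slc10a2, the ileal bile acid transporter, from 4.90 to 1363 CPM. Markers of the proximal small intestine were also present, with Lct (lactase) at 0.796–3122 CPM and Fabp1 at 0–1660 CPM. The pieces therefore differed in their regional markers within every group, and these values are given beside the hormone genes they moved with.

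Per kilobase of exons, the 10 genes covered a wide range of levels. Nts had the highest median (40.5 CPM per kb), followed by Sst (36.6), Gcg (36.2), Gip (26.6), Pyy (25.4), Chgb (19.8), Chga (16.7), Sct (16.1), Cck (3.86) and Tph1 (1.68 CPM per kb). The order of neighbours was mostly not fixed. Nts was above Sst in 13 of 24 libraries, Sst above Gcg in 13, Gcg above Gip in 12, Gip above Pyy in 15, Pyy above Chgb in 15 and Chga above Sct in 11. Only the steps below Sct were present in nearly all libraries, with Sct above Cck in 24 of 24 and Cck above Tph1 in 21 of 24 libraries, and Chgb was above Chga in 19 of 24. The step from Cck to Tph1 depends on the exon length used, 1305 bases for Cck and 6172 for Tph1. In CPM, not divided by length, the median of Tph1 (10.4) was above that of Cck (5.04).

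**Figure D1:**
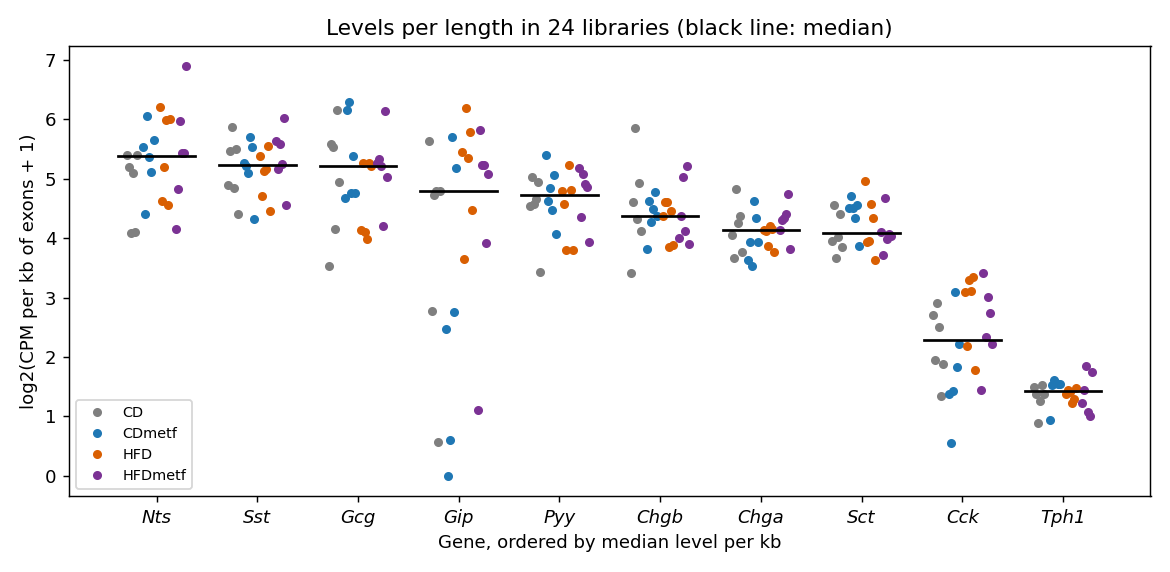
Level of each gene in the 24 libraries as log2(CPM per kb of exons + 1), ordered by the median (black line), with 1 point per library coloured by group. The 8 most abundant genes overlap, Cck and Tph1 lie below them, and Gip spans the widest range on this log2 scale, from 0 to 72.0 CPM per kb.

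The genes also differed in how much they varied between animals. Gip, which encodes the incretin hormone of K cells, had a standard deviation of 1.75 on the log2(CPM + 1) scale over the 24 libraries, larger than that of 99.5% of the 14076 genes tested. Cck (SD of 0.82), Gcg (0.76) and Nts (0.72) were also above 92.6% of the genes or more. In contrast, Chga, Sct and Tph1 had SDs of 0.36, close to the middle of all genes.

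In none of the comparisons did any of the 10 genes pass the threshold (edgeR quasi-likelihood test, FDR of 0.05 over all genes tested). For HFD vs. CD, 0 of 10 members and 0% of the 14076 genes were called, and at an unadjusted p under 0.05 the numbers were 0 of 10 members and 4.63% of all genes. For HFDmetf vs. CDmetf, 0 of 10 members and 0% of all genes were called, with 0 members and 7.87% of all genes at an unadjusted p under 0.05. For HFDmetf vs. HFD, 0 of 10 members and 0% of all genes were called, with 0 members and 6.61% of genes unadjusted. For CDmetf vs. CD, the values were again 0 of 10 members and 0% of genes, with 0 members and 5.14% of genes unadjusted. With DESeq2 and with limma-voom, 0 members were called and 0 had an unadjusted p under 0.05 in these 4 comparisons, whereas over the whole table DESeq2 called 13 genes for HFD vs. CD, 4 for CDmetf vs. CD and 0 in the remaining comparisons and limma-voom called 0 in all 4. The values of every member overlapped between the groups in each of the 4 comparisons, where 0.0853%, 0.142%, 0.0355% and 0.149% of all genes had groups that did not overlap. The exact permutation tests of the single members (two-sided, 924 splits of 6 against 6, 40 tests) gave no p under 0.05 either, before any adjustment.

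**Figure D2:**
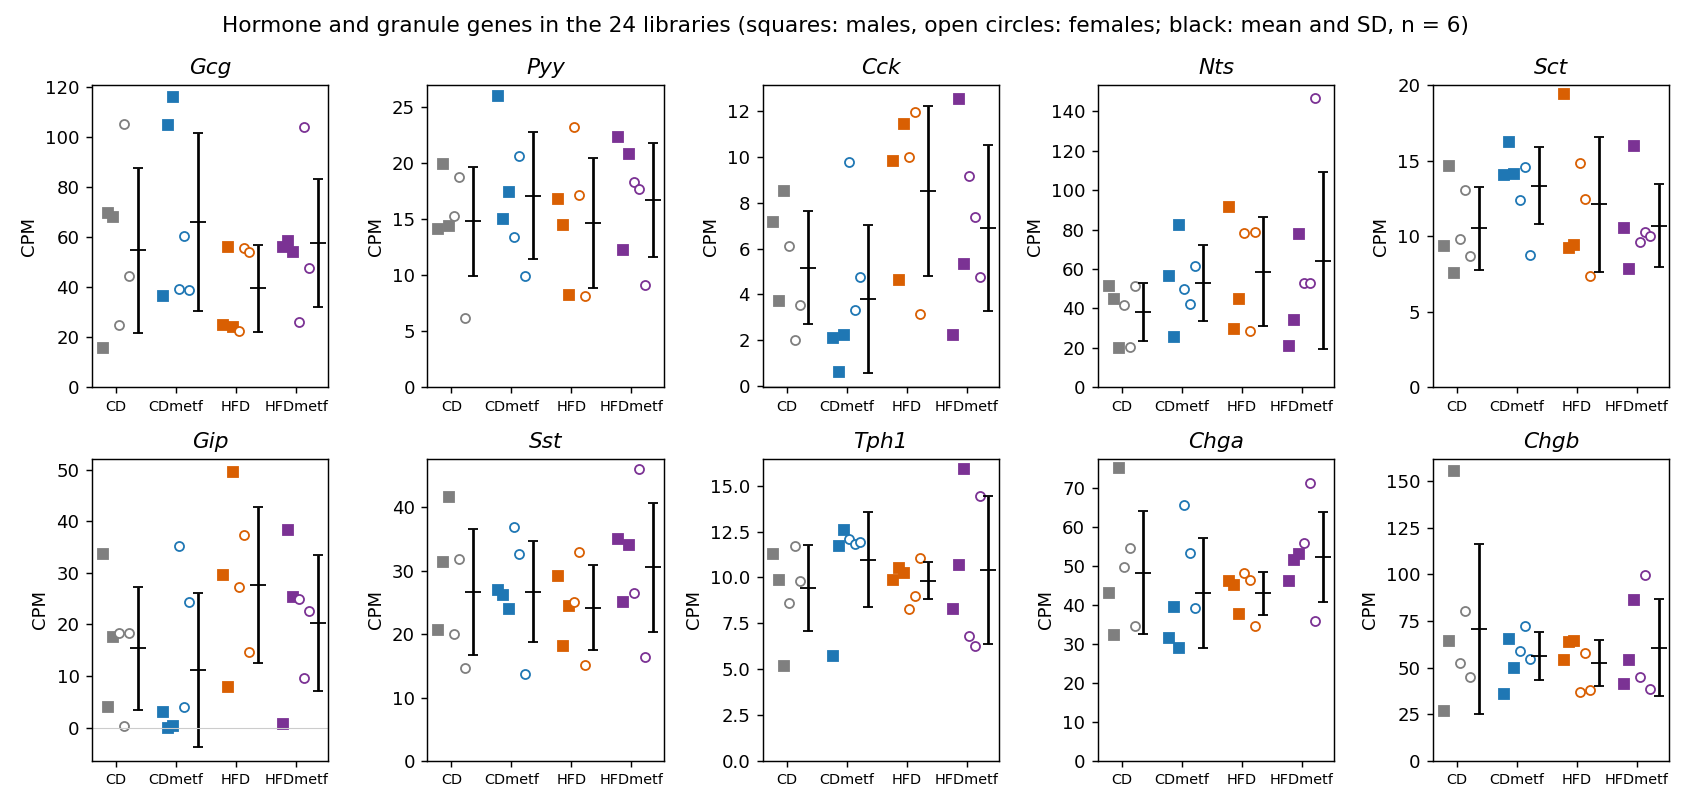
CPM of the 10 genes in each library by group (filled squares: males, open circles: females), with the mean and SD of 6 animals in black. The groups overlap for all 10 genes. In CPM the largest SD within a group is that of Chgb in CD (45.3, from 26.5 to 155 CPM). Gip reaches from 0 to 35.3 CPM in CDmetf.

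The hormones of the proximal gut, Gip and Cck, had the highest group means in HFD. Gip (ENSMUSG00000014351, chr11:96024545-96030831, plus strand, coordinates of GRCm38 with the GENCODE annotation) ranged in CD from 0.335 to 33.7 CPM (median of 17.9), in CDmetf from 0 to 35.3 (3.53), in HFD from 7.90 to 49.4 (28.4) and in HFDmetf from 0.796 to 38.3 CPM (23.8). The lowest libraries were CDmetf M2 with 0 reads, CD F2, CDmetf M3 and HFDmetf M1, and each group except HFD had at least 1 animal under 1 CPM. The mean was 27.7 ± 15.05 CPM in HFD against 15.3 ± 11.9 in CD (SD, n = 6), with a fitted log2 fold change (logFC) of 0.95 (SE 0.85, 95% confidence interval from −0.83 to 2.74, edgeR FDR = 1.00). For HFDmetf vs. CDmetf, the means were 20.3 ± 13.2 and 11.2 ± 14.9 CPM and the logFC 1.36 (SE 0.93, FDR = 0.725). Metformin was accompanied by logFC values of −0.27 (SE 0.85) on HFD and −0.68 (SE 0.89) on CD. The intervals were the widest of the 10 genes, and differences of this size were not detectable against the spread between animals.

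Cck (ENSMUSG00000032532, chr9:121489824-121495694, minus strand) encodes cholecystokinin, the satiety and gallbladder-contracting hormone of I cells. It ranged from 2.01 to 8.51 CPM in CD (median of 4.91), from 0.601 to 9.80 in CDmetf (2.78), from 3.16 to 11.99 in HFD (9.93) and from 2.23 to 12.6 CPM in HFDmetf (6.35). The mean was 8.51 ± 3.70 CPM in HFD against 5.17 ± 2.48 in CD, and 5 of 6 HFD animals were above the CD animal with the same label of sex and number (logFC = 0.65, SE 0.48, edgeR FDR = 1.00). Without CD M3 the logFC was 0.91 (SE 0.49, unadjusted p = 0.0775, FDR = 0.999). On metformin, 6.90 ± 3.65 CPM in HFDmetf stood against 3.80 ± 3.25 in CDmetf, which gave a logFC of 0.90 (SE 0.50, unadjusted p = 0.0839, FDR = 0.657). With limma-voom the 2 diet differences of Cck were 0.34 (SE 0.36) and 0.45 (SE 0.44). The difference on metformin was not even over the replicate numbers, since the difference in mean log2(CPM + 1) was −0.01 among animals numbered 1, 2.02 among those numbered 2 and 0.48 among those numbered 3.

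For the L-cell gene Gcg, which encodes proglucagon, the precursor of GLP-1 and GLP-2, the comparison of HFDmetf with HFD came closest to the threshold. Gcg (ENSMUSG00000000394, chr2:62474530-62483650, minus strand) ranged from 15.8 to 105 CPM in CD (median of 56.2), from 36.6 to 116 in CDmetf (49.9), from 22.3 to 56.0 in HFD (39.6) and from 26.2 to 104 CPM in HFDmetf (55.1). HFD animals had the lowest mean and the narrowest range. With metformin on HFD the mean was 57.8 ± 25.6 against 39.5 ± 17.3 CPM, 5 of 6 HFDmetf animals were above the HFD animal with the same label, and the logFC was 0.56 (SE 0.28, confidence interval from −0.04 to 1.15, edgeR unadjusted p = 0.0605, FDR = 0.640). The difference in mean log2(CPM + 1) was 0.68, 0.48 and 0.47 among the animals numbered 1, 2 and 3. The exact permutation test over the 12 libraries gave p = 0.175. On CD, metformin came with a logFC of 0.38 (SE 0.28, FDR = 0.951), and HFD vs. CD gave −0.33 (SE 0.28, FDR = 1.00). For HFDmetf vs. CDmetf it was −0.16 (SE 0.28). Without the pair of HFD libraries labelled M2 and F2, the logFC of Gcg for HFDmetf vs. HFD was 0.49 (SE 0.33).

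Pyy (ENSMUSG00000017311, chr11:102106676-102107832, minus strand), the gene of peptide YY, another hormone of L cells, had overlapping values in all groups. Its group medians were 14.8 CPM in CD, 16.2 in CDmetf, 15.6 in HFD and 17.97 in HFDmetf, with single libraries between 6.19 and 26.0 CPM. Its logFC lay between −0.05 for HFDmetf vs. CDmetf and 0.26 for CDmetf vs. CD, with SEs of 0.24 throughout. The interval for HFDmetf vs. HFD reached from −0.32 to 0.71.

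Nts (ENSMUSG00000019890, chr10:102481756-102490486, minus strand) encodes neurotensin, an ileal peptide that facilitates fat absorption. It ranged from 20.1 to 51.5 CPM in CD (median of 43.1), from 25.3 to 82.2 in CDmetf (53.3), from 28.3 to 91.5 in HFD (61.5) and from 21.0 to 147 CPM in HFDmetf (52.8). The CD group had the lowest mean, 38.2 ± 14.5 CPM, against 58.5 ± 27.7 in HFD, and the logFC for HFD vs. CD was 0.52 (SE 0.34, unadjusted p = 0.136, edgeR FDR = 1.00). The differences were 0.86, −0.05 and 0.86 on the log2(CPM + 1) scale among animals numbered 1, 2 and 3. Without CD M3 and those labelled HFD M2 and HFD F2, the logFC was 0.55 (SE 0.38), without CD M3 alone 0.35 (SE 0.33, unadjusted p = 0.303) and without the other two alone 0.73 (SE 0.39). For CDmetf vs. CD the logFC was 0.39 (SE 0.34) and, without CD M3, 0.18 (SE 0.33). It was 0.22 (SE 0.34) for HFDmetf vs. CDmetf and 0.09 (SE 0.34) for HFDmetf vs. HFD.

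Sct, the gene of secretin, which stimulates pancreatic bicarbonate secretion, had the lowest p-value of the 10 genes for metformin on CD. Sct (ENSMUSG00000038580, chr7:141278330-141279133, minus strand) ranged from 7.56 to 14.6 CPM in CD (median of 9.57) and from 8.74 to 16.2 CPM in CDmetf (14.1), and the CDmetf animal was the higher one in 6 of 6 matches of the same sex and number. The means were 13.3 ± 2.57 and 10.5 ± 2.74 CPM, with a logFC of 0.35 (SE 0.21, confidence interval from −0.10 to 0.80, unadjusted p = 0.113, edgeR FDR = 0.940). On HFD, Sct ranged from 7.34 to 19.4 CPM (median of 10.9) and in HFDmetf from 7.85 to 15.9 CPM (10.1), and the logFC for metformin was −0.15 (SE 0.22). HFDmetf vs. CDmetf gave −0.30 (SE 0.22) and HFD vs. CD 0.21 (SE 0.22), so the diet difference had opposite signs without and with metformin, neither past the threshold.

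Sst (ENSMUSG00000004366, chr16:23889573-23890958, minus strand), which encodes somatostatin, the inhibitory peptide of D cells, had medians of 26.1 CPM in CD, 26.6 in CDmetf, 24.8 in HFD and 30.3 in HFDmetf. The logFC for HFDmetf vs. HFD was 0.31 (SE 0.26, unadjusted p = 0.239, edgeR FDR = 0.684), and the 2 groups overlapped, with 16.4–46.1 CPM in HFDmetf and 15.1–32.98 CPM in HFD. CDmetf vs. CD gave a logFC of −0.01 (SE 0.25), with an interval from −0.54 to 0.53. Tph1 (ENSMUSG00000040046, chr7:46644641-46672537, minus strand), the rate-limiting enzyme of serotonin synthesis in enterochromaffin cells, had medians of 9.82 CPM in CD, 11.9 in CDmetf, 10.0 in HFD and 9.47 in HFDmetf. Its logFC lay between −0.08 and 0.19 in the 4 comparisons, with SEs of 0.22 to 0.23. Mast cells can also carry Tph1, and of the 10 mast cell markers 2 passed the filter. Their summed level was 25.6–85.1 CPM in CD, 33.2–68.8 in CDmetf, 28.4–57.6 in HFD and 20.4–85.3 CPM in HFDmetf, most of it from Kit (17.99–75.1 CPM), which interstitial cells of the gut muscle also express. The mast cell protease gene Mcpt1 lay between 0 and 14.6 CPM, the histidine decarboxylase gene Hdc was above 0 in all libraries (median of 0.822 CPM), and Cma1, Ms4a2 and Fcer1a were at 0 reads in 13, 13 and 17 of 24 libraries. The part of mast cells in the level of Tph1 was not tested.

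The granule proteins Chga and Chgb, the chromogranins shared by most enteroendocrine cells, also did not pass the threshold. Chga (ENSMUSG00000021194, chr12:102554969-102565028, plus strand) ranged from 32.2 to 75.1 CPM in CD (median of 46.4), from 29.0 to 65.7 in CDmetf (39.3), from 34.6 to 48.1 in HFD (45.6) and from 35.95 to 71.1 CPM in HFDmetf (52.3). The mean in HFDmetf was 52.3 ± 11.6 CPM, against 42.95 ± 5.46 in HFD (logFC = 0.27, SE 0.21, edgeR FDR = 0.665) and 43.01 ± 13.98 in CDmetf (logFC = 0.29, SE 0.21, FDR = 0.733). Without HFDmetf F2, which held the highest Chga of its group, these logFC values were 0.17 and 0.20. Chgb (ENSMUSG00000027350, chr2:132781278-132795079, plus strand) ranged from 26.5 to 155 CPM in CD (median of 58.4), from 35.8 to 72.4 in CDmetf (56.6), from 36.7 to 64.2 in HFD (56.0) and from 38.3 to 99.5 CPM in HFDmetf (49.7). The highest value of both genes in CD came from CD M3, the library dominated by ribosomal RNA sequences (Chga 75.1 and Chgb 155 CPM). With all libraries, HFD vs. CD gave a logFC of −0.38 (SE 0.28) for Chgb and −0.19 (SE 0.21) for Chga. Without CD M3 these values were 0.024 (SE 0.23) and 0.090 (SE 0.15), and the logFC of Chga for CDmetf vs. CD went from −0.21 (SE 0.21) to 0.049 (SE 0.15), so the signs of these differences depended on that library.

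**Figure D3:**
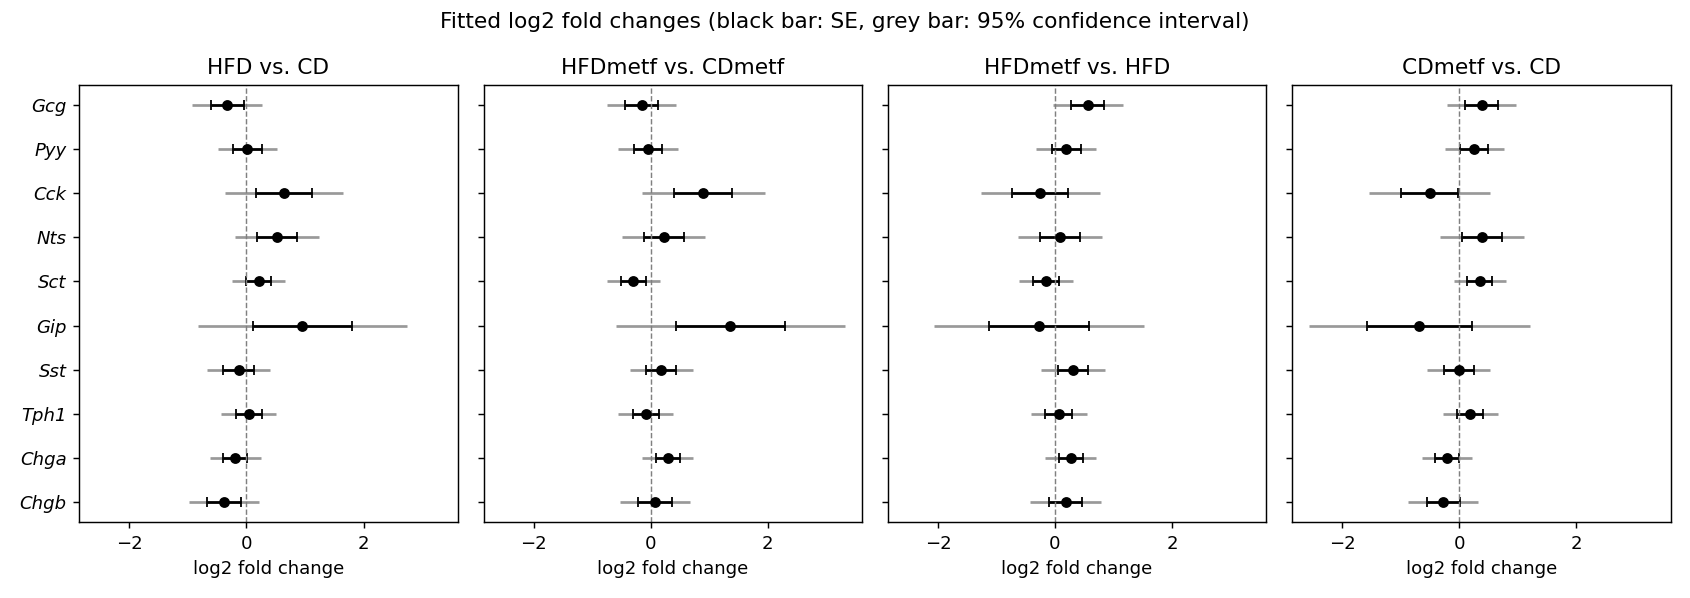
Fitted log2 fold changes of the 10 genes in the 4 comparisons, with the SE (black) and the 95% confidence interval (grey). Every interval includes 0, and the intervals of Gip, which reach from −2.56 to 3.31 over the 4 panels, are the widest.

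Over the list, the members lay on both sides of 0 in each comparison. The median logFC of the 10 genes was 0.03 for HFD vs. CD (6 of 10 above 0, against 48.8% of all genes), 0.13 for HFDmetf vs. CDmetf (6 of 10, against 55.2%), 0.14 for HFDmetf vs. HFD (7 of 10, against 53.9%) and 0.09 for CDmetf vs. CD (5 of 10, against 49.6%). The medians of all 14076 genes were −0.0047, 0.033, 0.026 and −0.0023. HFD vs. CD and CDmetf vs. CD share the CD animals, and the other comparisons share a group in the same way, so the 4 sets of values are not independent of each other.

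The interaction term, which asks whether the metformin difference was the same on both diets, called 0 of 10 members and 0% of all genes, with 0 members and 6.03% of genes at an unadjusted p under 0.05 (DESeq2 called 4 genes, none of them a member, and limma-voom 0). Its largest values were −0.50 for Sct (SE 0.30, unadjusted p = 0.113, edgeR FDR = 0.799), 0.48 for Chga (SE 0.29, FDR = 0.799) and 0.45 for Chgb (SE 0.40, FDR = 0.828). Without CD M3 and those labelled HFD M2 and HFD F2, the value of Chgb was −0.043 (SE 0.35) and that of Chga 0.17 (SE 0.24), and without CD M3 alone they were 0.052 (SE 0.31) and 0.20 (SE 0.21).

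Between males and females, 0 of 10 members and 0.0071% of all genes were called (1 gene), and at an unadjusted p under 0.05 the numbers were 0 members and 7.27% of genes. The largest differences were −0.44 for Gip (SE 0.64) and 0.26 for Pyy (SE 0.17). Without the 2 libraries whose sex-linked reads went against the label, 0 members and 8 genes were called, and these values were −0.17 (SE 0.71) and 0.28 (SE 0.18). The effect of metformin on CD was also compared between the sexes, in a model with 8 groups of 3 animals (14402 genes tested): 0 members and 0% of genes were called, while 3 members and 5.21% of genes had an unadjusted p under 0.05. These members were Gip, Cck and Chga. In CDmetf, Gip stood at 3.12, 0 and 0.359 CPM in the males and at 35.3, 3.94 and 24.4 CPM in the females. In CD, the males held 33.7, 3.99 and 17.5 CPM and the females 18.3, 0.335 and 18.3 CPM. The logFC for CDmetf vs. CD was lower in males than in females by a log2 value of −5.21 (SE 1.69, unadjusted p = 0.00618, edgeR FDR = 0.912) for Gip, −2.35 (SE 0.89, FDR = 0.912) for Cck and −0.83 (SE 0.38, FDR = 0.926) for Chga. The same males had little RNA of proximal markers: the summed CPM of the 10 proximal genes was 445, 240 and 263 in the CDmetf males and 4095, 373 and 3228 in the CDmetf females. Whether the sex difference would remain in pieces of equal regional make-up was not tested. For HFDmetf vs. CDmetf, which shares those animals, 0 members and 0% of genes were called for a difference between the sexes, with 1 member (Gip) and 5.28% of genes unadjusted. For HFD vs. CD and HFDmetf vs. HFD, 0 members were called and 0 had an unadjusted p under 0.05, against 2.11% and 3.33% of genes.

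Although no member separated the groups, several of them moved together between animals. Of the 45 pairs of members, 9 correlated over the 24 libraries at an adjusted p under 0.05 (Pearson's r of log2(CPM + 1), 100000 permutations, Benjamini-Hochberg adjustment over 85 relations computed), 7 of them positive and 2 negative. The median r over all pairs was 0.08. The closest pair was Gip and Cck (r = 0.88, permutation p = 1e-05, the smallest that the permutations can give, adjusted p = 0.000425). Spearman's rho was 0.90 (permutation p = 1e-05, adjusted p = 0.000283), r without the 2 libraries farthest from the median was 0.84, and within replicate numbers 1, 2 and 3 it was 0.95, 0.98 and 0.73 (8 libraries each). Gcg ran against both, with r = −0.68 for Gip (permutation p = 0.00039, adjusted 0.00474) and r = −0.53 for Cck (permutation p = 0.00713, adjusted 0.0253). For Gcg and Gip, rho was −0.66 (permutation p = 0.00072, adjusted 0.00556), r without the 2 farthest libraries −0.67, and r within the numbers −0.75, −0.70 and −0.89. For Gcg and Cck, rho was −0.48 (permutation p = 0.0182), which did not pass after adjustment (0.0644), and r without the 2 farthest libraries was −0.51.

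A further set was formed by Sst with its neighbours. Sst correlated with Pyy (r = 0.65, permutation p = 0.00064, rho = 0.56), with Chga (r = 0.62, permutation p = 0.00126, rho = 0.64) and with Chgb (r = 0.58, permutation p = 0.0024, rho = 0.56), and Chga correlated with Chgb (r = 0.59, permutation p = 0.00241, rho = 0.52). Pyy and Sct gave r = 0.63 (permutation p = 0.00109, rho = 0.69) and Gcg and Chgb r = 0.55 (permutation p = 0.00512, rho = 0.57). The permutation p-values of rho in these 6 pairs ran from 0.00034 to 0.0101, and the adjusted p-values from 0.00361 to 0.0409 by either coefficient. Without the 2 farthest libraries these r values were 0.51 for Sst and Pyy, 0.61 for Sst and Chga, 0.64 for Sst and Chgb, 0.49 for Chga and Chgb, 0.56 for Pyy and Sct and 0.39 for Gcg and Chgb. Without CD M3, r was 0.46 for Chga and Chgb, 0.57 for Sst and Chga and 0.52 for Sst and Chgb, and for the pair Gip and Cck it was 0.88. Within the 8 libraries of replicate number 1, Sst and Pyy gave 0.14 and Pyy and Sct 0.29, and within number 3, Gcg and Chgb gave 0.11, so these pairs were not equally close within every number. All genes of this set also fell with depth. As a description, r with log10 of the reads on genes was −0.60 for Sst, −0.38 for Sct, −0.37 for Pyy, −0.36 for Chgb, −0.29 for Chga and −0.22 for Gcg. The part of depth in these correlations was not tested.

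**Figure D4:**
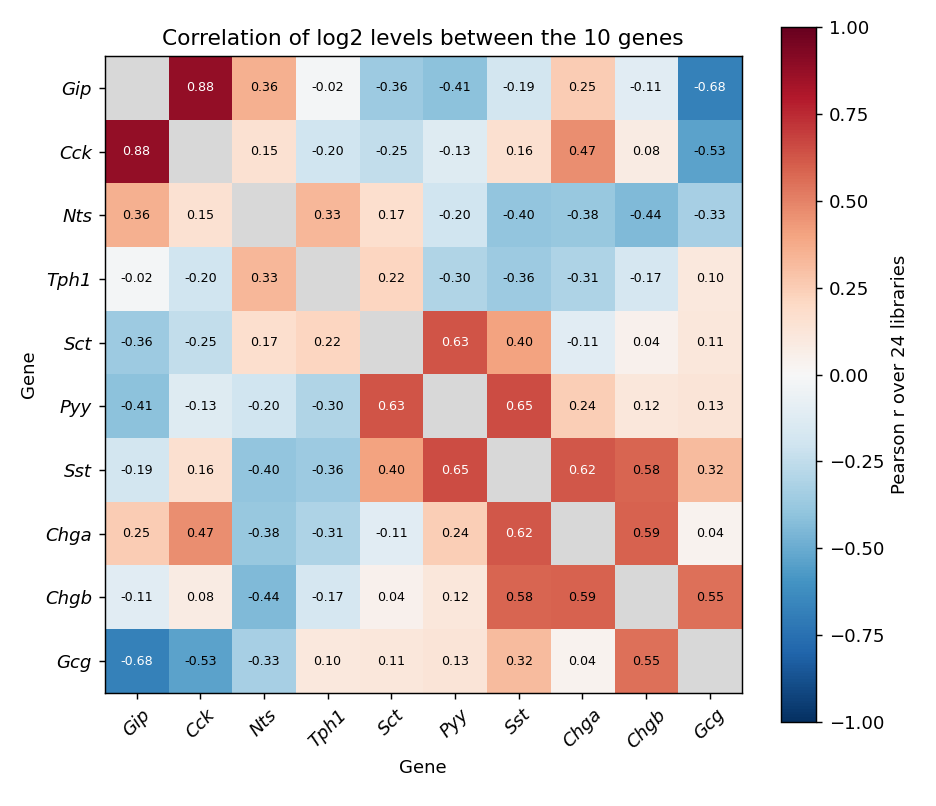
Pearson's r of log2(CPM + 1) between the 10 genes over the 24 libraries, from blue (−1) to red (1). Gip and Cck form the closest pair (0.88), Gcg lies opposite to both (−0.68 and −0.53), and Sst, Chga and Chgb are positively related (0.58 to 0.62).

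Promoters are shown for a part of these genes: Gip and Cck, which varied together, Gcg, which ran against them, and Sst and Chgb. Sst was closer to Pyy (r = 0.65) and Chga (0.62) than to Chgb (0.58). The sequences are the 250 bases upstream of the RefSeq transcription start (GRCm38.p6), written 5′ to 3′ on the strand of the gene, at chr11:96024295-96024544 (plus strand) for Gip, chr9:121495695-121495944 (minus) for Cck, chr2:62483654-62483903 (minus) for Gcg, chr16:23890845-23891094 (minus) for Sst and chr2:132781392-132781641 (plus) for Chgb. Capitals mark AGATAA on either strand (a GATA factor motif), TGACGTCA (the cAMP response element, which reads the same on both strands) and TATAAA on the gene's strand (TATA box), and no 2 of these overlap.
Gip: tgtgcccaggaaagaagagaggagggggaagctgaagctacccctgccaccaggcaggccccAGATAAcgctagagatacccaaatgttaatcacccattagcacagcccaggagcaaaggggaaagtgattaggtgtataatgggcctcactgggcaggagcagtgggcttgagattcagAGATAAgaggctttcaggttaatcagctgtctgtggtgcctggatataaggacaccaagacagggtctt
Cck: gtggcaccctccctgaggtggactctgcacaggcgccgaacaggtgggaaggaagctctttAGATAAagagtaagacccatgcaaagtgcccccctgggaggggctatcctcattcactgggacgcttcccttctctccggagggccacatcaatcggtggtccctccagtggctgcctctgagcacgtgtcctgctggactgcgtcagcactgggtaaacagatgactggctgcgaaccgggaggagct
Gcg: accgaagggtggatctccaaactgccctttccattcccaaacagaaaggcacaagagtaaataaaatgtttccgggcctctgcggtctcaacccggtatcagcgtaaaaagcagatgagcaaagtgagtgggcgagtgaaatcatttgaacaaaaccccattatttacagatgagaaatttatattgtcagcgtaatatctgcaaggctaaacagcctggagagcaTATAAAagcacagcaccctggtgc
Sst: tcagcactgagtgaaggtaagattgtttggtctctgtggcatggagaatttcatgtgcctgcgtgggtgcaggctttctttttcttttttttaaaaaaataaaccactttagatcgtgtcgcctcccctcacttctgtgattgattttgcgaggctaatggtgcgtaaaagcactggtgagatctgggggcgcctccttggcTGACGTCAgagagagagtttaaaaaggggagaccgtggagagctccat
Chgb: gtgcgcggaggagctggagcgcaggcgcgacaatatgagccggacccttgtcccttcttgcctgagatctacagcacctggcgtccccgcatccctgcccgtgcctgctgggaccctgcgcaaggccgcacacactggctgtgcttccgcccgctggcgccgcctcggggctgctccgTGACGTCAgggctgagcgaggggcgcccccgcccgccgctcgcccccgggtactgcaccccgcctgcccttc
AGATAA began 188 and 69 bases upstream of the start of Gip and 189 bases upstream of that of Cck, and 131 bases upstream of that of Nts, which did not correlate with Gip or Cck at an adjusted p under 0.05, and it was not in the windows of the other 7 members. It was present in 10.3% of the 27025 promoters of this length. TGACGTCA began 48 bases upstream of the start of Sst and 72 bases upstream of that of Chgb, and 1.62% of all promoters held it. It was not in the windows of Pyy and Chga, whose correlations with Sst were also positive, nor in those of the other 6 members. TATAAA began 24 bases upstream of the start of Gcg and 28 bases upstream of that of Sct, and it was not in the windows of the remaining members. It was present in 8.12% of all promoters. These are matches of letters and no measurement of binding. In the annotation (GENCODE, GRCm38), the exons of the 10 genes overlapped no other gene.

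The pair Gip and Cck followed the regional markers of the tissue pieces. The score of the 10 proximal small intestine genes (mean z-score of log2 CPM) correlated with Gip at r = 0.87 (permutation p = 1e-05, adjusted p = 0.000425, rho = 0.88 with permutation p = 1e-05) and with Cck at r = 0.74 (permutation p = 0.00005, adjusted p = 0.00085, rho = 0.72 with permutation p = 0.00014). With Gcg the relation was inverse, r = −0.83 (permutation p = 0.00002, adjusted p = 0.000567, rho = −0.86 with permutation p = 1e-05). Without the 2 farthest libraries the values were 0.89, 0.78 and −0.78, and within the replicate numbers they lay between 0.79 and 0.99 for Gip, 0.64 and 0.93 for Cck and −0.77 and −0.98 for Gcg. For the 10 distal markers, the signs turned: r = −0.65 for Gip, −0.62 for Cck, 0.56 for Gcg, 0.54 for Pyy and 0.55 for Sct (permutation p from 0.0006 to 0.00662, adjusted from 0.00544 to 0.0245, rho between −0.66 and 0.61 with permutation p from 0.00068 to 0.0107). Pyy and Sct did not pass with the proximal score (r = −0.39 and −0.20). The distal list also holds the goblet cell genes Muc2 (1512–6185 CPM) and Tff3, and the part of goblet cells in these values was not tested. None of Nts, Sst, Tph1, Chga and Chgb correlated with either regional score at an adjusted p under 0.05.

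**Figure D5:**
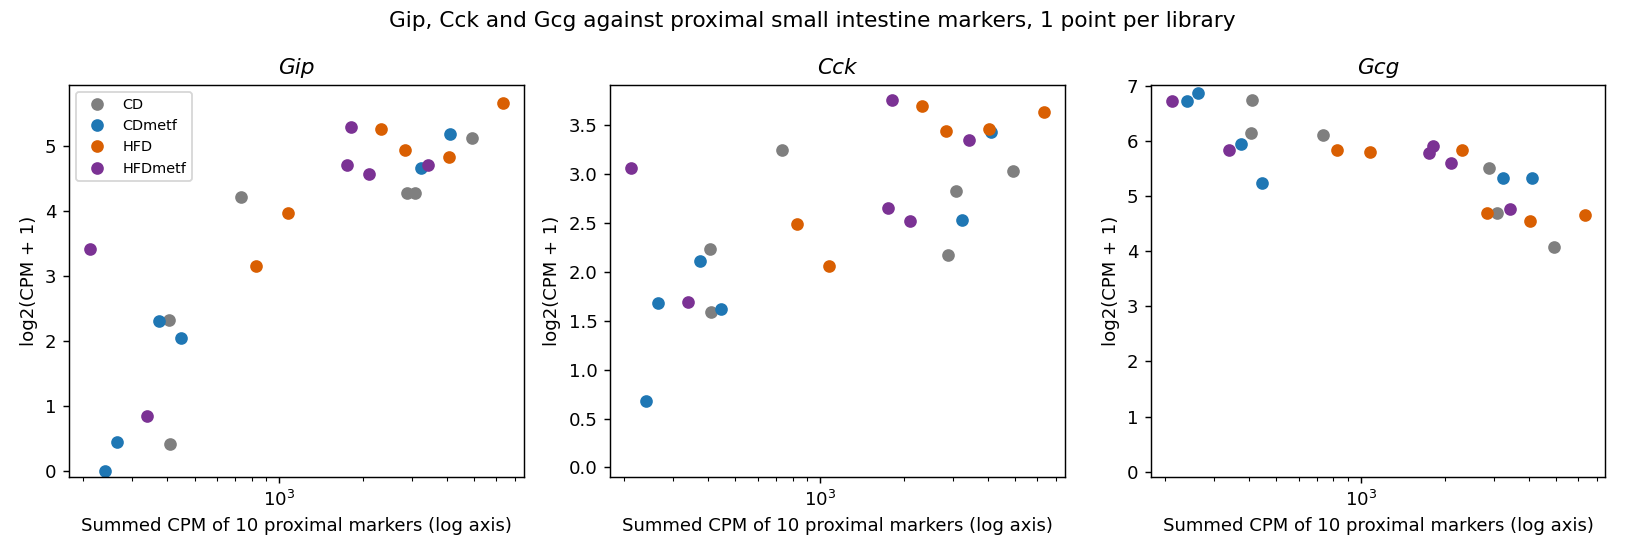
Level of Gip, Cck and Gcg as log2(CPM + 1) against the summed CPM of 10 proximal small intestine markers (log axis), with 1 point per library coloured by group. Gip and Cck are higher and Gcg lower in libraries with more proximal marker RNA, and libraries of all 4 groups lie along the same course.

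The proximal marker sum was not even over the groups, with medians of 1802 CPM in CD, 409 in CDmetf, 2574 in HFD and 1783 in HFDmetf (211–6333 CPM over all libraries). With the proximal minus distal score as a covariate in the edgeR model, the logFC of Gip for HFD vs. CD was 0.19 (SE 0.61) in place of 0.95, that of Cck 0.18 (SE 0.37) in place of 0.65 and that of Gcg −0.02 (SE 0.20) in place of −0.33. For HFDmetf vs. CDmetf, Gip went to 0.76 (SE 0.67) and Cck to 0.39 (SE 0.39). For HFDmetf vs. HFD, Gcg went to 0.30 (SE 0.20, unadjusted p = 0.135, FDR = 0.835). At equal regional score these differences were closer to 0, and their SEs were smaller too. Not every member moved this way: for HFD vs. CD, Pyy went from 0.02 to 0.22 (SE 0.21) and Sct from 0.21 to 0.33 (SE 0.22). Nts went from 0.52 to 0.55 (SE 0.35) and Chga from −0.19 to −0.22 (SE 0.21), while Sst, Tph1 and Chgb moved towards 0. The proximal score holds Fabp1, which the paper lists among its top genes for HFDmetf vs. CDmetf, so region and diet cannot be told apart by it. The part of region in these differences was not tested. The summed CPM of 8 epithelial markers had its lowest median in HFDmetf (8769, against 10168 in CD, 10072 in CDmetf and 9949 in HFD). With the epithelial score as a covariate, the logFC of Chga was 0.10 (SE 0.19) for HFDmetf vs. HFD in place of 0.27 and 0.094 (SE 0.20) for HFDmetf vs. CDmetf in place of 0.29. For HFDmetf vs. CDmetf, Cck went to 0.50 (SE 0.53) and Sct to −0.12 (SE 0.21), and for HFDmetf vs. HFD, Sst went to 0.16 (SE 0.26).

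Tissue of the gut wall also varied, and in the libraries at both ends of the proximal score it went with the regional markers. CDmetf M2, with the lowest proximal score (−1.46), had scores of 2.14 for smooth muscle and 1.36 for enteric neuron markers. HFD M3, with the highest proximal score (1.68), had −1.26 and −1.38. For Gcg, Gip and Cck, the relations below are therefore not counted as separate findings from those with the proximal score. Nts did not correlate with the proximal score (r = 0.34, adjusted permutation p = 0.228). The score of the 7 smooth muscle markers tested, of 8 listed, correlated with Gcg at r = 0.64 (permutation p = 0.00064, adjusted p = 0.00544, rho = 0.72), with Gip at −0.72 (permutation p = 0.00004, adjusted p = 0.00085, rho = −0.68), with Nts at −0.58 (permutation p = 0.00295, adjusted p = 0.0139, rho = −0.55) and with Cck at −0.57 (permutation p = 0.0035, adjusted p = 0.0157, rho = −0.45). The permutation p-values of rho were 0.00012, 0.00041, 0.00626 and 0.0284, of which that for Cck did not pass after adjustment (0.0929). Without the 2 farthest libraries these values were 0.63, −0.57, −0.45 and −0.34. For the 10 of 11 enteric neuron markers that were tested, which matter here because enteric neurons also hold Sst, Cck and chromogranins, r was 0.64 for Gcg (permutation p = 0.00092, rho = 0.73), −0.74 for Gip (permutation p = 0.00006, rho = −0.75) and −0.60 for Cck (permutation p = 0.002, rho = −0.55). The permutation p-values of rho were 0.00009, 0.00008 and 0.00669, the adjusted p-values ran from 0.00085 to 0.0284 by either coefficient, and r without the 2 farthest libraries was 0.70, −0.72 and −0.50. The summed CPM of the 11 neuron markers had medians of 70.2 in CD, 71.4 in CDmetf, 40.7 in HFD and 76.9 in HFDmetf, with single libraries between 30.3 and 136 CPM. Sst, Chga and Chgb themselves did not correlate with the neuron score at an adjusted p under 0.05 (r = 0.19, 0.09 and 0.24). The part of muscle and neurons in the levels of these genes was not tested. Markers of the pancreatic islet, the other main source of Gcg and Sst, were near 0: Ins1 and Ins2 had 0 reads in 21 of 24 libraries each, and all 8 islet genes together summed to between 0.303 and 2.20 CPM. Of the 18 exocrine pancreas genes 8 passed the filter, and most of their sum of 848–2551 CPM came from Zg16 (617–2488 CPM), which goblet cells also express. The 9 B-cell markers, a sign of lymphoid tissue in a piece, summed to 6.93–413 CPM.

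Animals of the same label resembled each other across groups for 2 members. The F3 library had the lowest Pyy of its group in all 4 groups (6.19, 9.92, 8.17 and 9.08 CPM in CD, CDmetf, HFD and HFDmetf), as well as the lowest Sst (14.6, 13.6, 15.1 and 16.4 CPM). The F3 libraries were the lowest of all 4 groups for 1.99% of the genes tested and the highest for 3.91%, whereas for the other 5 labels these shares lay between 0.0213% and 0.313%. They were also among the deepest, with 18233700 to 40384200 reads on genes, and over all 24 libraries Sst had r = −0.60 with log10 of the depth, given as a description. With a separate level for each sex and number in the block, an alternative chosen after the values were seen, 0 members and 0 genes were called in the 4 comparisons and the interaction.

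The genes that build and regulate enteroendocrine cells were examined by lists chosen with the pathway in mind, and the lowest p-values given for a list are over the 4 comparisons of diet and metformin. Of 19 transcription factors of the lineage 12 could be tested, and among those under the filter was Neurog3, the factor that starts the endocrine lineage, with at most 37 reads in a library. For HFDmetf vs. HFD, 9 of the 12 had a logFC above 0 and 3 below (median of 0.28), against 53.9% of all genes above 0, 0 were called and 1 had an unadjusted p under 0.05, against 6.61% of all genes. That gene was Mnx1, a homeobox factor, with 3.03 ± 0.953 CPM in HFDmetf (2.00–4.39) and 1.58 ± 0.682 in HFD (0.817–2.57) and a logFC of 0.80 (SE 0.30, edgeR FDR = 0.640). Egr3 and Hhex had the lowest p-values after it, both for CDmetf vs. CD, with logFC values of 1.84 (SE 0.76, FDR = 0.940) and 0.89 (SE 0.40, FDR = 0.940). With each animal left out, both were lowest without CDmetf F2 (1.51 and 0.55), the library with the highest B-cell marker sum (413 CPM). The part of lymphoid tissue in these values was not tested. Egr3 had 0 reads in some libraries of both groups.

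Among the genes of prohormone processing and granules, 17 of 18 could be tested. For HFDmetf vs. HFD, 17 of 17 had a logFC above 0 (median of 0.39), against 53.9% of all genes, and for HFD vs. CD 16 of 17 lay below 0 (median of −0.35), against 48.8% of all genes above 0. These counts share the HFD animals and 0 genes were called in either. In the first comparison 4 of 17 had an unadjusted p under 0.05, against 6.61% of all genes, among them Ptprn2 (an insulinoma-associated membrane protein of dense-core granules) at 41.5 ± 13.3 against 30.5 ± 7.42 CPM (logFC = 0.39, SE 0.16, edgeR FDR = 0.640) and Scg2 (secretogranin II) at 23.6 ± 6.28 against 14.8 ± 7.15 CPM (logFC = 0.67, SE 0.28, FDR = 0.640). In the second there were 2 of 17, against 4.63%, with Syt7 (a calcium sensor of exocytosis) at 30.2 ± 10.6 in HFD against 40.9 ± 15.6 CPM in CD (logFC = −0.45, SE 0.17, FDR = 1.00). Many of these genes are also made by enteric neurons, whose marker sum had its lowest median, 40.7 CPM, in HFD, and the part of neurons in these values was not tested. The chromogranins of the member list had values of the same sign, 0.27 (SE 0.21) for Chga and 0.18 (SE 0.28) for Chgb for HFDmetf vs. HFD.

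Of 14 other gut hormones and neuropeptides, 10 could be tested and 0 were called. Npy (neuropeptide Y) had 2.30 ± 1.38 CPM in HFDmetf against 0.712 ± 0.298 in HFD (logFC = 1.27, SE 0.54, edgeR FDR = 0.640), and Vip (vasoactive intestinal peptide) had 20.8 ± 10.3 against 11.6 ± 9.02 CPM (logFC = 0.86, SE 0.43, FDR = 0.640). Both are known from enteric neurons. Ghrl, the ghrelin gene, had 2.46 ± 1.02 CPM in HFDmetf and 1.36 ± 0.883 in CDmetf (logFC = 0.87, SE 0.40, FDR = 0.627). Gast, the gastrin gene, had at most 2 reads in any library. Of 15 nutrient and bile acid sensors 8 could be tested and 0 were called, and the lowest p-values were those of Ffar2, a short-chain fatty acid receptor (4.75 ± 1.88 CPM in HFDmetf against 2.67 ± 0.605 in HFD, logFC = 0.70, SE 0.29, FDR = 0.640), Trpm5, a taste channel of tuft and endocrine cells (logFC = −0.55, SE 0.26, for CDmetf vs. CD, FDR = 0.940), and Slc15a1, the peptide transporter (logFC = −0.94, SE 0.51, for HFDmetf vs. HFD, FDR = 0.640).

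All 8 genes of serotonin synthesis and transport were tested and 0 were called. Ddc, the enzyme after Tph1, had 82.5 ± 28.1 CPM in HFD against 52.7 ± 12.8 in CD, with overlapping groups (52.999–111 and 37.2–70.3 CPM, logFC = 0.60, SE 0.31, unadjusted p = 0.0671, edgeR FDR = 1.00). Maob, which degrades amines, and Slc6a4, the serotonin transporter, had logFC values of −0.60 (SE 0.31) and −0.48 (SE 0.30) for CDmetf vs. CD (FDR = 0.940 for each). Most hormone receptors were too low to test. Of 24 receptors and peptidases, 6 passed the filter and 0 were called, and the receptors of GLP-1 and GIP, Glp1r and Gipr, had at most 58 and 42 reads in any library. Htr3a, the serotonin-gated channel, had the lowest unadjusted p of its list in the 4 comparisons of diet and metformin, with 3.63 ± 1.84 CPM in HFDmetf against 0.975 ± 0.791 in HFD (logFC = 1.61, SE 0.53, unadjusted p = 0.00645, edgeR FDR = 0.640). Dpp4, the peptidase that inactivates GLP-1 and GIP, had 666 ± 483 against 930 ± 141 CPM (logFC = −0.65, SE 0.37, FDR = 0.640), and Ece1, an endothelin-converting peptidase, had a logFC of 0.18 (SE 0.14, FDR = 0.665).

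As a description over the 24 libraries, the genes whose log2 CPM (prior count of 1) ran closest to Gip were Enpp7 (r = 0.94), an intestinal alkaline sphingomyelinase, Tm4sf5 (0.93) and Faah (0.93). Cck was closest to Gip itself (0.89), Zfpm1 (0.89) and Sp5 (0.86), and Gcg to Ocrl, Tceal9 and Myadm (each 0.86). Chgb was closest to Ubap2l (0.87), Gm23935 (0.86) and mt-Rnr1 (0.85), of which the latter pair was among the 10 most abundant genes of CD M3. For the other members, the highest r was 0.84 for Pyy with Caskin2, 0.84 for Nts with Tiprl, 0.86 for Sct with Dnmbp, 0.89 for Sst with Arhgap39, 0.77 for Tph1 with Spryd7 and 0.84 for Chga with Cchcr1. For the mean z-score of all 10 genes, whose members partly ran against each other, the highest r was 0.69 (Leng1), below the best value of any single member.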

How the data were processed

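The authors used Trimmomatic 0.39 for trimming and STAR 2.5.3a for mapping to GRCm38 and counting, and the deposited table held raw counts per gene, the only unit used here. The release of the annotation and the strand setting are not given in the sources used here. From the counts, CPM were computed with TMM factors, and edgeR 4.0.16 (R 4.3.3) was used for filterByExpr and a quasi-likelihood fit of group, sex and replicate number to all 24 libraries (17 residual degrees of freedom), with Benjamini-Hochberg adjustment over 14076 genes and a threshold of 0.05. SEs are the absolute logFC divided by the square root of F. The permutation tests used log2(CPM + 1), and scores log2 CPM with a prior count of 1. Each library is an animal from its own cage, so n counts animals and cages alike.

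The members, the related lists and the tests were chosen with earlier results of these data known. All 10 members were named whatever their values, and of each related list the 3 genes with the smallest unadjusted p in the 4 comparisons of diet and metformin. The alternatives tried were DESeq2 1.42.0, limma-voom (limma 3.58.1), RLE scaling, no filter (1 read in any library), at least 10 reads in every library, no replicate block, no sex term, the 12 libraries compared alone, fits without CD M3 or those labelled HFD M2 and HFD F2, marker scores as covariates, a pseudocount of 0.1, each animal left out and, chosen after seeing the data, a block level for each sex and number. On data simulated for HFDmetf vs. HFD, the test called 56.0% of 200 genes given a log2 change of 1 (13724 genes, 2.61% of its calls were unchanged genes). It called 91.5% of those given a change of 2 (13696 genes). The simulated counts held no differences by sex, replicate number or region. The changed genes were drawn at random from all genes, so these shares do not refer to genes with the spread of Gip. The labels and the study's methods give the numbers 1 to 3 and the blocks but do not tie them to each other. Libraries that share sex and number across groups had a mean correlation of deviations of 0.158 (36 pairs), those of different numbers −0.08 (72 pairs). The deviations were taken from the mean of the 3 animals of each group and sex. The second value therefore largely follows from the first and is no separate evidence. Promoter sequences are from RefSeq (all 10 members matched) and symbols were found for 55450 of 55536 gene IDs.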

Additional observations from a re-analysis of the deposited data

Results flagged for a closer look

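Each of the 40 combinations of a member and a group was examined for a library far from the other 5 by Dixon's ratio at its 95% critical value for 6 samples, which by chance marks about 1 group in 20, and 2 were marked. Sct in HFDmetf M3 was at 15.9 CPM (36 reads), while the other HFDmetf animals lay between 7.85 and 10.5 CPM. Without this animal the logFC of Sct was −0.47 for HFDmetf vs. CDmetf in place of −0.30, and −0.67 for the interaction in place of −0.50, with unadjusted p under 0.05 in both and edgeR FDRs of 0.436 and 0.554. Tph1 in CDmetf M1 was at 5.71 CPM (22 reads), and the other CDmetf animals lay between 11.7 and 12.6 CPM.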

How the results depend on the processing

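The number of members called was 0 in all 6 comparisons and in the 4 differences between the sexes under every alternative run, the fits without the replicate block included (0 members and 0 genes called in the 4 comparisons and the interaction, 1 gene between the sexes). The replicate numbers were not shown to pair the libraries. Of 24 logFC values of members that exceeded their SE, 5 of the 319 values under alternatives and 2 of the 576 with an animal left out turned sign, none of them called. Chgb for HFD vs. CD was 0.0238 without CD M3 and 0.119 without the 3 doubted libraries (CD M3 and those labelled HFD M2 and HFD F2), Chga for CDmetf vs. CD was 0.0494 and 0.0518, and the interaction of Chgb was −0.0429 without the 3 libraries. With each animal left out, Chgb for HFD vs. CD ranged from −0.55 to 0.0238 and Chga for CDmetf vs. CD from −0.35 to 0.0494. Over all genes, DESeq2 called 13 for HFD vs. CD, 4 for CDmetf vs. CD, 4 for the interaction and 22 between the sexes. With edgeR the count between the sexes was 1, and it was 15 with no filter, 2 without CD M3, 8 without those labelled HFD M2 and HFD F2 and 8 without all 3. The difference of HFDmetf vs. CDmetf between the sexes had 1 gene called without those 2 libraries. With each animal left out, 0 to 1 genes were called for HFD vs. CD (1 without CD F1) and 1 to 8 between the sexes (8 without HFD M2, 7 without HFD F2, 4 without HFDmetf M3, 3 without CDmetf M3). The cause was not tested. The logFC of Gip ranged from 0.61 (without HFD M3) to 1.41 (without CD M1) for HFD vs. CD and from 0.74 (without HFDmetf M2) to 1.96 (without CDmetf F3) for HFDmetf vs. CDmetf, and that of Gcg for HFDmetf vs. HFD from 0.34 (without HFDmetf M1) to 0.70 (without HFD F3, FDR of 0.276). At the lowest depth, 1 read was worth 0.569 CPM, so the low values of Gip and Cck rest on few reads, 0 to 3 reads in 2 and 1 libraries.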
